A study of Mus musculus with 2 samples.

Results

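The retinoic acid receptors *Rara*, *Rarb* and *Rarg*, the retinoid X receptors *Rxra*, *Rxrb* and *Rxrg*, and the corepressors *Ncor1* and *Nrip1* were followed through the retinoid-containing cells of the mouse lung. These 8 genes were taken by symbol from the 32285 genes of the count tables, and each symbol matched 1 gene. UV-positive cells, which carry the autofluorescence of stored retinoids, had been sorted alive from digested lungs of male C57BL/6 mice (wild type, 3 months of age) on 2 occasions, and each sort gave 1 library of single cells. Both libraries are of the same untreated condition, so the comparisons below are between the cell types that each sort contained, and how many mice stood behind a library is not given in the sources used here.

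Retinoic acid acts in the nucleus through heterodimers of a retinoic acid receptor (RAR) and a retinoid X receptor (RXR), which sit on DNA at direct repeats of a short motif. Without ligand the RAR binds a corepressor complex built on NCOR1 that removes acetyl groups from histones, and ligand exchanges it for coactivators. NRIP1, also known as RIP140, is a corepressor of another kind: it joins the liganded receptor and limits its activity. RXR is also the partner of other nuclear receptors, among them those for fatty acids, oxysterols, thyroid hormone and vitamin D.

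One receptor gene of the set is itself a target of the heterodimer. *Rarb* is the textbook case of a gene switched on by retinoic acid through a direct repeat with a spacing of 5 bases (DR5), and *Cyp26a1*, which encodes an enzyme that degrades retinoic acid, is another. The bases before an annotated start of each gene are shown because they carry that element, and because the transcripts of both genes were close to absent from the sorted cells. The letters searched were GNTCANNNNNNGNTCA, on both strands, in RefSeq windows of 250 bases before to 50 after each annotated start. This pattern occurred in 283 of 32851 windows (0.861%), and capitals mark the match. Of the 17 windows of the 8 receptor and corepressor genes it was found in 1, that of *Rarb*, and of 10 retinoic acid responsive genes with a window it was found in *Cyp26a1*. The *Rarb* match runs from base 52 to base 37 before the start and the *Cyp26a1* match from base 32 to base 17, there in the opposite orientation to the gene. Each stretch is the 150 bases that end at the base before the start. The *Rarb* stretch is chr14:16575477-16575626 on the minus strand, and the *Cyp26a1* stretch is chr19:37697658-37697807 on the plus strand (GRCm38.p6). The *Rarb* stretch lies inside the span of the gene (16430839 to 16819156), so the start that it precedes is an internal annotated start.
Rarb: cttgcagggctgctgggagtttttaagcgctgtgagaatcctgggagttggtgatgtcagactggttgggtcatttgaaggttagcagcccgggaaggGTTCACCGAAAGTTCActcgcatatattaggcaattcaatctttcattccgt
Cyp26a1: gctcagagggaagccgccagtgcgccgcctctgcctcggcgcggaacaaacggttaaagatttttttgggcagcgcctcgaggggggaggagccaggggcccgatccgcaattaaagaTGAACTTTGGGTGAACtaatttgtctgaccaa
The same letters at a spacing of 2 bases (GNTCANNNGNTCA, in 1.12% of windows) and of 1 base (GNTCANNGNTCA, in 1.26%) had no match in a window of the 8 genes.

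Cells with at least 200 genes and at most 10% mitochondrial UMIs (unique molecular identifiers, the counted molecules) were put in a class when exactly 1 of 4 gates held 3 or more UMIs: stromal (*Col1a2*, *Mfap4*, *Pdgfra*), endothelial (*Cdh5*, *Pecam1*, *Egfl7*), epithelial (*Epcam*, *Cdh1*, *Lamp3*) or immune (*Ptprc*, *Laptm5*, *Cd52*). Stromal cells with 3 or more UMIs of *Dcn*, a proteoglycan of the matrix around vessels and airways, were called adventitial, and those with none alveolar. Libraries 1 and 2 held 48762735 and 93970185 UMIs, and medians of 4480.0 and 7577.5 UMIs per kept cell. The class sums held 7645 and 7438 stromal, 56 and 360 endothelial, 930 and 101 epithelial, and 266 and 334 immune cells, in that order of libraries. More than 1 gate was passed by 4.36% of cells in library 1 and 16.4% in library 2, with medians of 10331.0 and 17378.5 UMIs, and these cells were left out of the classes. No separate doublet caller was run. The libraries shared 23 barcodes, 15 of them in classes. The 5 endothelial markers outside the gate summed to 10951 and 10418 counts per 1000000 UMIs (CPM) in the endothelial class and to at most 38.1 CPM in another class. The 6 stromal markers outside the gate summed to 11559 and 11347 CPM in stromal cells and to 602 and 344 CPM in endothelial cells, so the endothelial sums carried some stromal transcripts, whose part in the endothelial values was not tested. The epithelial markers summed to 255887 and 209280 CPM in epithelial cells and to between 188.6 and 527.0 CPM in the other classes. Within the stroma, 5 adventitial markers summed to 2846 and 984 CPM in adventitial and 1568 and 460 CPM in alveolar cells, and 5 alveolar fibroblast markers to 2502 and 3829 CPM in adventitial and 5447 and 6158 CPM in alveolar cells. *Pi16*, a defining gene of adventitial fibroblasts, was at 204.5 and 46.5 CPM in adventitial and 0.60 and 0.31 CPM in alveolar cells. The adventitial list summed to 1807 and 2266 CPM in endothelial cells, above the adventitial cells in library 2, and of this 1715 and 2249 CPM were *Ly6c1*, which capillary endothelium also expresses. The endothelial sum of library 1 held 119534 UMIs, and 1 UMI there is worth 8.37 CPM.

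Levels are given as CPM of the UMIs summed over the cells of a class, 1 value per library. Differences were fitted on the summed counts of all genes in edgeR with the library as a block, on sums scaled by TMM (trimmed mean of M values), and called at an adjusted p under 0.05. Classes differed at many genes, so the count of receptors and corepressors called is read against the share of all 11832 tested genes: 32.1% were called between endothelial and stromal cells, 46.0% between epithelial and stromal, 50.8% between immune and stromal, 39.7% between endothelial and epithelial, 37.1% between endothelial and immune, and 47.4% between epithelial and immune. Of the 7 genes of the set that passed the filter on low counts (*Rxrg* did not), 2, 4, 4, 3, 2 and 2 were called in those comparisons. These shares of 7 are near the background, so being called was not in itself particular to the receptors, and the differences below are given for their direction and size. TMM scaling raised epithelial over stromal differences by 0.57 and 0.54 on the log2 scale in libraries 1 and 2 against scaling to total UMIs, and lowered endothelial over epithelial differences by 0.94 and 0.67, so calls and sizes depend in part on the scaling. The median over all tested genes moved with it, from -0.09 to -0.65 in epithelial over stromal, from -0.13 to -0.40 in immune over stromal, from -0.12 to 0.05 in endothelial over stromal, from 0.02 to 0.72 in endothelial over epithelial, from 0.08 to 0.51 in endothelial over immune and from 0.04 to -0.23 in epithelial over immune.

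Among the RARs, *Rara* and *Rarg* made up nearly all transcripts and were spread differently over the classes. *Rara* (RARα, the most widely expressed RAR; chromosome 11, 98927818 to 98974942, plus strand, GRCm38) was lowest in epithelial cells and higher in immune than in stromal cells. Its levels in libraries 1 and 2 were 78.7 and 76.1 CPM in immune cells, 25.1 and 88.2 in endothelial cells, 29.0 and 39.1 in stromal cells, and 8.90 and 8.06 in epithelial cells. The immune values lay above every stromal and epithelial value, and the epithelial values below all others. The means were 77.4 ± 1.81 CPM (SD, n = 2) in immune, 34.1 ± 7.13 in stromal and 8.48 ± 0.60 in epithelial cells. *Rara* was 2.76-fold higher in immune than in stromal cells (log2 1.46, SE 0.27, edgeR adjusted p = 7.0e-05), 2.51-fold lower in epithelial than in stromal cells (log2 -1.33, SE 0.31, edgeR adjusted p = 0.00084), and 6.91-fold lower in epithelial than in immune cells (log2 -2.79, SE 0.33, edgeR adjusted p = 1.05e-07). With library totals these differences were 1.18, -1.89 and -3.07 on the log2 scale, all still called. The immune excess over stromal cells was not seen in every kind of leukocyte gated below.

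The endothelial level of *Rara* differed between the libraries by more than any other class. It rested on 3 UMIs in library 1 (95% Poisson interval 5.18 to 73.3 CPM) and on 163 in library 2 (75.2 to 102.8 CPM). The pooled fit put *Rara* higher in endothelial than in stromal cells (log2 0.88, SE 0.31, edgeR adjusted p = 0.028), but library 1 alone gave -0.58 and library 2 alone 1.03, and DESeq2 gave an adjusted p of 0.44. Against epithelial cells the endothelial excess had the same sign in both libraries (log2 0.55 and 2.77 taken singly, 2.21 together, SE 0.37, edgeR adjusted p = 2.2e-05, and 2.95 with library totals). Barcodes past the stromal and the endothelial gate, which the classes leave out, numbered 931 in library 2 and held *Rara* at 72.8 CPM, between the stromal and the endothelial value of that library. In library 1 there were 86, at 46.9 CPM (30.1 to 69.8), above both the stromal value (29.0) and the endothelial value (25.1, on 3 UMIs).

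Like *Rara*, *Rarg* (RARγ, a receptor of epithelia and mesenchyme in development; chromosome 15, 102234938 to 102257517, minus strand, GRCm38) was low in epithelial cells. Unlike *Rara* it was also low in immune cells, and it was high in stromal and endothelial cells. Its levels in libraries 1 and 2 were 41.5 and 46.5 CPM in stromal cells, 66.9 and 49.8 in endothelial cells, 13.7 and 19.9 in immune cells, and 10.1 and 13.2 in epithelial cells. Stromal and endothelial values all lay above the immune and epithelial ones. *Rarg* was 2.65-fold lower in epithelial than in stromal cells (log2 -1.41, SE 0.27, edgeR adjusted p = 9.7e-05) and 2.13-fold lower in immune than in stromal cells (log2 -1.09, SE 0.29, edgeR adjusted p = 0.0030). It was also higher in endothelial than in epithelial cells (log2 1.42, SE 0.34, edgeR adjusted p = 0.0015, and 2.16 with library totals) and than in immune cells (log2 1.10, SE 0.35, edgeR adjusted p = 0.014), although the latter was not called with cells required to hold none of the other classes' gate transcripts (adjusted p = 0.14). Stromal and endothelial cells were not told apart (log2 0.01, SE 0.29, edgeR adjusted p = 0.99).

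**Figure D1:**
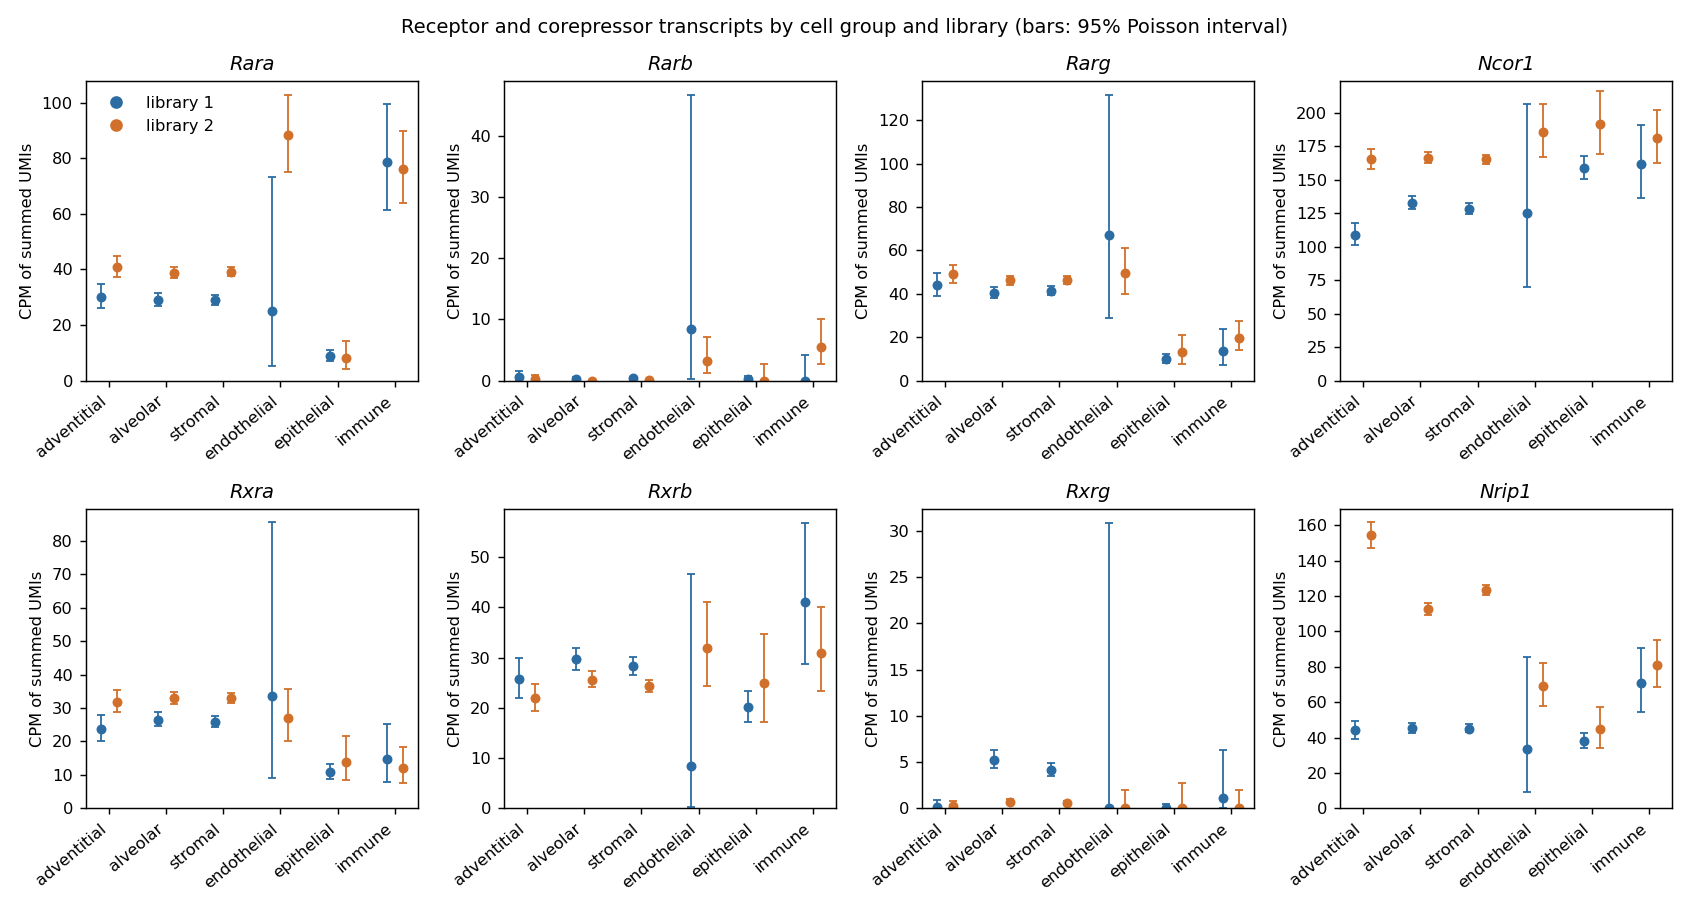
CPM of summed UMIs (y axis) for each receptor and corepressor by cell group (x axis); points are single libraries and bars their 95% Poisson intervals, which cover counting error only. Adventitial and alveolar cells are parts of the stromal class; the library 1 endothelial points have wide bars because that sum held 119534 UMIs.

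The share of each subtype among RAR UMIs does not depend on the scaling between classes. *Rara* was 41.0% (Clopper-Pearson 95% interval 39.0 to 42.9) and 45.7% (44.3 to 47.1) of RAR UMIs in stromal cells, 46.4% (38.6 to 54.3) and 37.9% (20.7 to 57.7) in epithelial cells, and 85.2% (75.6 to 92.1) and 75.0% (68.1 to 81.1) in immune cells of libraries 1 and 2. The immune intervals lay wholly above the stromal and epithelial ones. In endothelial cells *Rara* was 3 of 12 RAR UMIs in library 1 (interval 5.49 to 57.2%) and 62.5% of 261 in library 2 (56.3 to 68.3). Epithelial cells thus had less of both *Rara* and *Rarg* than stromal cells at a like proportion, whereas immune cells held mostly *Rara*. How well each transcript was captured is not known, so a share compares cell classes for the same gene and does not rank the genes.

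*Rarb* (RARβ; chromosome 14, 16430839 to 16819156, minus strand, GRCm38) was nearly absent. Stromal cells held 13 *Rarb* UMIs among 34131249 in library 1 and 4 among 58609046 in library 2, or 0.38 and 0.07 CPM. Endothelial cells held 1 and 6 UMIs (8.37 and 3.25 CPM), immune cells 0 and 10 (5.52 CPM in library 2, and a count of 0 allows up to 3.42 CPM in library 1), and epithelial cells 2 and 0 (0.23 CPM in library 1, and up to 2.20 CPM in library 2). The edgeR fit called *Rarb* higher in endothelial than in stromal cells (log2 4.28, SE 1.41, adjusted p = 0.020), higher in immune than in stromal cells (log2 4.49, SE 1.22, adjusted p = 0.0031) and lower in epithelial than in immune cells (log2 -4.17, SE 1.64, adjusted p = 0.039). Each rests on at most 13 UMIs in a class of a library and none was called by DESeq2 (adjusted p = 0.11, 0.057 and 0.16), and the immune calls come from library 2 alone. With library totals *Rarb* was also called higher in endothelial than in epithelial cells (log2 4.70, edgeR adjusted p = 0.042). Most *Rarb* transcripts of library 2 were outside the classes: of 60 cells with a *Rarb* UMI, 41 had passed 2 or more gates, with a median of 22041 UMIs, and these held 46 of its 66 *Rarb* UMIs. Relative to all their UMIs those barcodes had 1.54 CPM (1.12 to 2.05), against 3.25 CPM (1.19 to 7.07) in endothelial and 5.52 CPM (2.64 to 10.1) in immune cells of that library. Within the stroma of library 2, all 4 *Rarb* UMIs lay in adventitial cells and none in the 38784930 UMIs of the alveolar cells, whereas in library 1 there were 4 in adventitial and 6 in alveolar cells. *Cyp26a1*, whose element is printed above, was listed at 0 in stromal, endothelial and immune cells of both libraries.

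Among the RXRs, *Rxra* followed *Rarg* while *Rxrb* was nearer to even over the classes. *Rxra* (RXRα, the main partner of RARs in most tissues; chromosome 2, 27676440 to 27762957, plus strand, GRCm38) stood at 25.9 and 33.1 CPM in stromal cells, 33.5 and 27.1 in endothelial cells, 14.8 and 12.1 in immune cells, and 10.9 and 13.9 in epithelial cells of libraries 1 and 2. Again the stromal and endothelial values lay above all immune and epithelial ones. The endothelial value of library 1 is 4 UMIs, and its interval (9.12 to 85.7 CPM) covers the immune and epithelial values. Relative to stromal cells *Rxra* was 1.65-fold lower in epithelial cells (log2 -0.72, SE 0.28, edgeR adjusted p = 0.038) and 1.87-fold lower in immune cells (log2 -0.90, SE 0.33, edgeR adjusted p = 0.023). DESeq2 called neither (adjusted p = 0.14 and 0.11), and neither was called without the library block or after thinning to 2000 UMIs. The epithelial difference was also not called with cells required to hold none of the other classes' gate transcripts. Scaling to library totals widened the 2 differences to -1.28 and -1.18 on the log2 scale. With library totals *Rxra* was also called higher in endothelial than in epithelial cells (log2 1.14, edgeR adjusted p = 0.018) and than in immune cells (log2 1.03, edgeR adjusted p = 0.044), calls that were absent with TMM (log2 0.41 and 0.59).

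*Rxrb* (RXRβ, a broadly expressed RXR; chromosome 17, 34031812 to 34038399, plus strand, GRCm38) had 28.4 and 24.3 CPM in stromal cells, 8.37 and 31.9 in endothelial cells, 20.1 and 24.9 in epithelial cells, and 41.0 and 30.9 in immune cells of libraries 1 and 2. The low endothelial value is 1 UMI. It was called in none of the 6 class comparisons. The nearest to a call was immune over stromal (log2 0.70, SE 0.29, edgeR adjusted p = 0.051), which was called with the strict gates (adjusted p = 0.040). The direction of 3 of its other differences, endothelial over stromal, epithelial over stromal and endothelial over epithelial, turned with the scaling.

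The subtype shares of the RXRs therefore differed between classes. *Rxra* was 44.4% (42.2 to 46.6) and 57.0% (55.3 to 58.7) of RXR UMIs in stromal cells, 35.1% (29.4 to 41.1) and 35.8% (23.1 to 50.2) in epithelial cells, and 26.0% (14.6 to 40.3) and 28.2% (18.6 to 39.5) in immune cells of libraries 1 and 2. The shares of both immune sums and both epithelial sums lay below those of both stromal sums, with overlapping intervals only for the epithelial sum of library 2, although the stromal libraries differed from each other by more than their counting error. In endothelial cells *Rxra* was 4 of 5 RXR UMIs in library 1 and 45.9% (36.3 to 55.7) of 109 in library 2. Summed RAR CPM over summed RXR CPM was 1.21 and 1.48 in stromal cells, 2.40 and 2.39 in endothelial cells, 1.62 and 2.36 in immune cells, and 0.62 and 0.55 in epithelial cells. Epithelial cells were the class with fewer RAR than RXR UMIs in both libraries.

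**Figure D2:**
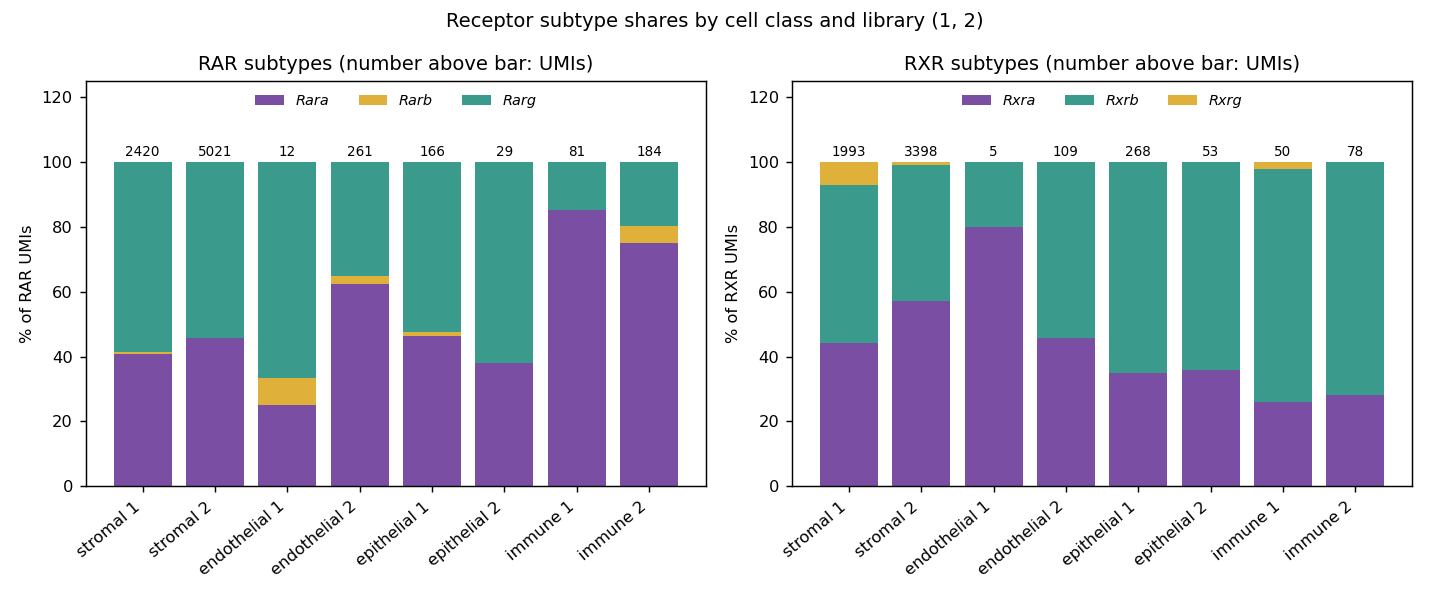
Share of each subtype (y axis, % of the family's UMIs) in each class and library (x axis; 1 and 2 are the libraries), with the number of RAR or RXR UMIs above each bar. *Rara* fills 85.2% and 75.0% of the immune RAR bars, against 41.0% and 45.7% of the stromal ones; the endothelial bars of library 1 rest on 12 and 5 UMIs.

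*Rxrg* (RXRγ, best known from muscle and the nervous system; chromosome 1, 167598384 to 167639623, plus strand, GRCm38) was a rare transcript of stromal cells, and much of it came from library 1. Stromal cells held 141 *Rxrg* UMIs in library 1 and 33 in library 2 (4.13 and 0.56 CPM), endothelial and epithelial cells held 0 in both, and immune cells held 1 and 0. The 930 epithelial cells of library 1 gave no *Rxrg* UMI, which allows up to 0.35 CPM, at a deeper median of 9340.5 UMIs per cell against 4297.0 in stromal cells. Within the stroma, 119 of 5805 alveolar cells had a UMI in library 1 (2.05%, 1.70 to 2.45) against 1 of 1017 adventitial cells (0.10%, 0.00 to 0.55). In library 2 it was 26 of 5545 alveolar cells (0.47%, 0.31 to 0.69) against 3 of 998 adventitial cells (0.30%, 0.06 to 0.88). Stromal cells with 1 or 2 *Dcn* UMIs, which belong to neither subgroup, were near the alveolar share in library 1, at 16 of 823 (1.94%). In library 2 they were at 3 of 895 (0.34%), between the adventitial and the alveolar share. Adventitial cells were the deeper of the pair, at medians of 6034.0 and 10655.5 UMIs against 3958.0 and 6545.0 in alveolar cells. The alveolar excess thus stood clear of counting error in library 1 but not in library 2. *Rxrg* failed the filter on low counts. Fitted without that filter it was called lower in adventitial than in alveolar cells (log2 -3.10, SE 0.68, edgeR adjusted p = 0.00013). After each cell was thinned to 2000 UMIs the alveolar share was 1.12% in library 1 and 0.15% in library 2.

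The 2 corepressors differed from the receptors and from each other. *Ncor1* (chromosome 11, 62316426 to 62458541, minus strand, GRCm38) was present in every class, within a narrow range. Its levels in libraries 1 and 2 were 128.5 and 165.3 CPM in stromal cells, 125.5 and 186.1 in endothelial cells, 158.9 and 191.9 in epithelial cells, and 161.9 and 181.5 in immune cells. The value of library 2 was above that of library 1 in all 4. Within each library the epithelial level was above the stromal one, with separate Poisson intervals (150.7 to 167.6 against 124.8 to 132.4 CPM in library 1, and 169.3 to 216.6 against 162.0 to 168.6 in library 2). The TMM-scaled fit called *Ncor1* higher in epithelial than in stromal cells (log2 0.81, SE 0.23, edgeR adjusted p = 0.0042) and lower in endothelial than in epithelial cells (log2 -0.89, SE 0.25, edgeR adjusted p = 0.0068). With library totals these were 0.26 (adjusted p = 0.28) and -0.13 (adjusted p = 0.68), so both calls depend on the scaling.

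*Nrip1* (chromosome 16, 76287400 to 76373827, minus strand, GRCm38) was, among the genes of the set above 10 CPM, the one on which the libraries differed most in stromal cells. Its levels in libraries 1 and 2 were 45.1 and 123.3 CPM in stromal cells, 33.5 and 69.3 in endothelial cells, 38.3 and 44.7 in epithelial cells, and 70.7 and 81.1 in immune cells. The stromal value of library 2 was 2.73 times that of library 1. Of 8183 genes with a stromal mean of at least 10 CPM, 2.07% differed between the libraries by as much or more, against 40.9% for *Rara* and 76.5% for *Rarg*. Adventitial and alveolar cells both showed it, at 44.1 and 154.3 CPM and at 45.3 and 112.7 CPM. In epithelial and immune cells the libraries differed 1.17 and 1.15 times and in endothelial cells 2.07 times, in each case with overlapping intervals. The endothelial value of library 1 was 4 UMIs (9.12 to 85.7 CPM). The sorts differ in occasion and depth, and the part of either in the difference was not tested. *Nrip1* was called lower in endothelial than in immune cells (log2 -0.95, SE 0.35, edgeR adjusted p = 0.031), which was lost in 5 of 8 other settings, among them library totals (adjusted p = 0.26). No other difference of *Nrip1* was called with TMM, whereas with library totals it was also called lower in epithelial than in stromal cells (log2 -0.84, edgeR adjusted p = 0.013) and than in immune cells (log2 -0.79, edgeR adjusted p = 0.034).

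**Figure D3:**
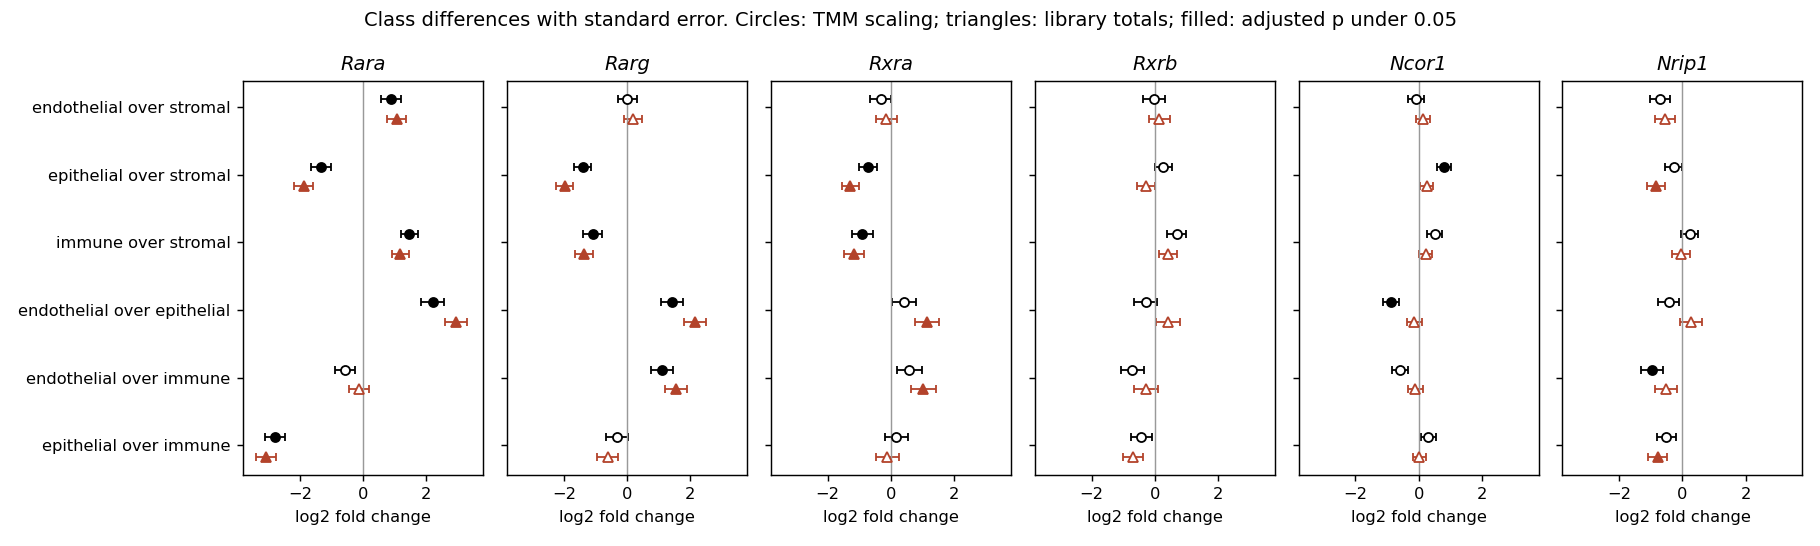
Fitted log2 fold change (x axis) with its standard error for 6 genes in the 6 comparisons between classes (y axis); circles are TMM-scaled fits, triangles fits scaled to library totals, and filled symbols have an adjusted p under 0.05. *Rara* and *Rarg* keep their filled symbols in both scalings wherever the circle is filled, *Ncor1* and *Nrip1* lose theirs, and *Rxra* and *Nrip1* each gain 2 with library totals.

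Scaling also moved the balance of all called genes. With TMM, 47.5% of genes called between epithelial and stromal cells were higher in epithelial cells, against 24.6% with library totals. The like shares were 46.7% and 36.3% for immune over stromal, 50.4% and 77.3% for endothelial over epithelial, 51.0% and 68.8% for endothelial over immune, and 50.7% and 39.8% for epithelial over immune. Of the 17 calls made for receptors and corepressors, 5 held in every tested setting: *Rara* in immune over stromal, endothelial over epithelial and epithelial over immune, and *Rarg* in epithelial over stromal and endothelial over epithelial. Thinning cells to 2000 UMIs ended the calls of *Rara* in epithelial over stromal (log2 -1.13) and of *Rarg* in immune over stromal (log2 -0.55) and endothelial over immune (log2 0.72). For these fits the gates were applied anew to the thinned counts, so class membership changed as well as depth. The thinned classes held 31 and 660 endothelial and 571 and 93 epithelial cells in libraries 1 and 2. The part of either change in the lost calls was not tested.

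Adventitial and alveolar stromal cells, the 2 groups set by *Dcn* that make up most of the sort, were not told apart by a receptor or corepressor that could be tested. Each group also held markers of the other. The alveolar fibroblast list summed to 2502 and 3829 CPM in adventitial cells, against 5447 and 6158 CPM in alveolar cells. The part of such mixing in the result was not tested. Of 7689 genes tested 13.1% were called between them, and 0 of the 6 receptor and corepressor genes tested, a count that a share of 13.1% would also give (0 also at an unadjusted p under 0.05, and 0 by DESeq2). *Rara* was at 30.2 and 40.8 CPM in adventitial and 29.1 and 38.9 in alveolar cells, and *Rarg* at 44.1 and 49.1 against 40.6 and 46.2. The fitted differences ran from -0.20 (*Rxrb*, SE 0.18) to 0.26 (*Nrip1*, SE 0.20) on the log2 scale. The standard errors of these differences were the smallest of the comparisons, from 0.16 to 0.21. With the classes as set on the full counts, thinning to 2000 UMIs kept 6867 and 7395 stromal and 924 and 101 epithelial cells. At that depth 12.6% and 15.8% of stromal cells held any RAR UMI and 11.2% and 11.02% any RXR UMI, and 3.79% and 2.97% of epithelial cells held any RAR UMI. Without thinning the stromal shares with any RAR UMI were 26.0% and 45.6%, at medians of 4297.0 and 7083.5 UMIs, so most cells in which no receptor was counted cannot be said to lack it.

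Inside the immune class the levels spread widely between kinds of leukocyte, on few UMIs. These groups were singled out after their values were seen and were not tested. Cells past a gate of neutrophil transcripts (*S100a8*, *S100a9*, *Retnlg*; 55 and 25 cells) held *Rara* at 148.3 (76.6 to 259.0) and 231.8 CPM (123.4 to 396.4). Monocyte-gated cells had 95.7 (57.6 to 149.4) and 117.1 CPM (70.5 to 182.9), and lymphocyte-gated cells had 49.7 (16.1 to 115.9) and 32.7 CPM (19.7 to 51.1). Dendritic-gated cells had 72.0 (23.4 to 168.0) and 63.2 CPM (28.9 to 119.9), and C1q-gated macrophages 34.7 (11.3 to 81.1) and 32.2 CPM (6.64 to 94.1). Neutrophil and monocyte intervals lay above the stromal *Rara* value of the same library (29.0 and 39.1 CPM). Those of the lymphocyte-gated and dendritic-gated cells and of these macrophages covered it. *Ncor1* was also highest in the neutrophil-gated cells, at 383.1 and 303.1 CPM, against 48.6 and 85.9 in macrophages gated on *C1qa*, *C1qb* and *C1qc*. *Nrip1* and *Rxra* had 0 UMIs in the neutrophil-gated cells of both libraries, which allows up to 37.1 and 53.5 CPM and so does not set *Rxra* below its level in other leukocytes.

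**Figure D4:**
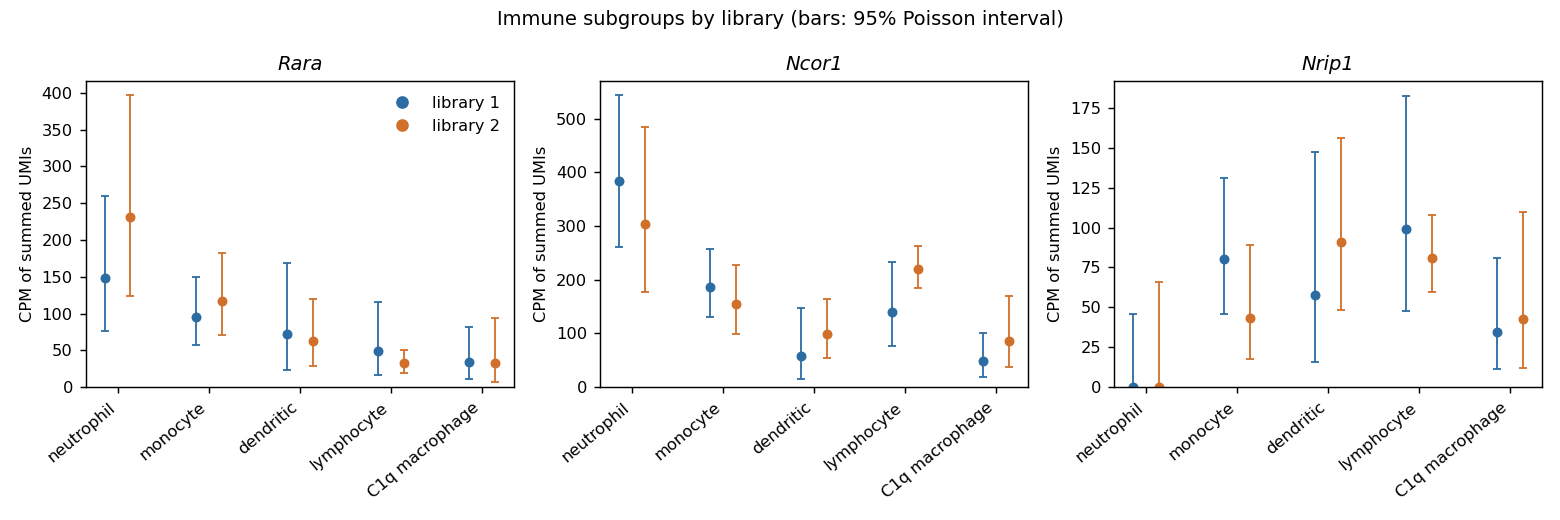
CPM of summed UMIs (y axis) for *Rara*, *Ncor1* and *Nrip1* in 5 gated immune subgroups (x axis); points are libraries and bars 95% Poisson intervals for counting error. Neutrophil-gated cells have the highest *Rara* points, 148.3 and 231.8 CPM, with intervals that overlap those of monocyte-gated cells.

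The partners through which the receptors act were followed as 3 lists. Of 18 cofactors, all tested, 4 to 6 were called in each class comparison, in each a smaller share than the 32.1 to 50.8% called among all genes, and the list's median difference lay between -0.15 and 0.11 on the log2 scale, beside medians of all genes between -0.13 and 0.08. With library totals 4 to 8 were called, and of those called in epithelial over stromal the split turned from 4 higher and 2 lower to 1 higher and 7 lower. It went from 2 and 4 to 6 and 0 in endothelial over epithelial, and from 4 and 1 to 6 and 0 in endothelial over immune. From 2 and 2 it went to 1 and 5 in immune over stromal and to 4 and 1 in endothelial over stromal. In epithelial over immune it stayed at 2 and 2. The coactivator *Ncoa3*, which recruits histone acetyltransferases to liganded receptors, was, like *Rara*, lowest in epithelial cells: it stood at 29.4 and 36.9 CPM in stromal, 58.6 and 72.0 in endothelial, 44.5 and 54.6 in immune and 6.24 and 6.59 in epithelial cells of libraries 1 and 2. It was lower in epithelial than in stromal cells (log2 -1.75, SE 0.29, edgeR adjusted p = 1.2e-05). *Kat2b*, a histone acetyltransferase, was higher in endothelial (log2 1.33, SE 0.31, edgeR adjusted p = 0.0013) and in epithelial than in stromal cells (log2 1.27, SE 0.26, edgeR adjusted p = 0.00025). Between adventitial and alveolar cells 1 of 17 cofactors tested was called, *Ctbp2*, a corepressor that NRIP1 can bind, lower in adventitial cells (log2 -0.48, SE 0.16, edgeR adjusted p = 0.048), and none with library totals.

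Of 14 RXR partners and COUP-TFs, orphan receptors that bind the same repeats and oppose RARs, 12 were tested. In endothelial over stromal 6 were called, all lower (32.1% of all genes were called), with a median of -2.55 on the log2 scale beside -0.12 for all genes. With *Pparg*, which had 0 endothelial UMIs, at its bound and *Vdr* left out, the median was -2.03. In epithelial over stromal 6 were lower and 1 higher (46.0% of all genes called), and in immune over stromal 6 were lower and 2 higher (50.8%), with medians of -0.66 and -0.60 beside -0.09 and -0.13. Directions were mixed between the other classes. In endothelial over epithelial 3 were higher and 4 lower (39.7% of all genes called), with a median of -0.34 beside 0.02 for all genes. In endothelial over immune 3 were higher and 4 lower (37.1%), with a median of 0.44 beside 0.08. In epithelial over immune 4 were higher and 3 lower (47.4%), with a median of 0.33 beside 0.04. Library totals left the directions of the genes called over stromal cells as they were and made 1 more call, in epithelial over stromal. Some uncalled differences turned, such as that of *Nr2f6* in epithelial over stromal, from 0.53 to -0.03 on the log2 scale. The COUP-TF *Nr2f2* was at 249.3 and 308.2 CPM in stromal cells and at 8.37 and 76.8 in endothelial, 15.0 and 21.2 in epithelial and 2.28 and 1.65 in immune cells. Its difference from stromal cells was -3.40 in epithelial and -7.05 in immune cells on the log2 scale, with edgeR adjusted p of 2.6e-10 and 1.5e-12. *Nr4a1*, an immediate early orphan receptor that can pair with RXR, was lower in endothelial than in stromal cells (log2 -3.89, SE 0.35, edgeR adjusted p = 9.5e-10), at 41.8 and 24.3 CPM against 634.6 and 259.2 CPM. The oxysterol receptor *Nr1h3* was called lower than in stromal cells in each of the 3 classes, at 106.9 and 78.8 CPM in stromal cells and at most 16.7 CPM elsewhere. The vitamin D receptor *Vdr* went the other way, with 7.28 and 8.06 CPM in epithelial cells against 0.12 and 0.03 CPM in stromal cells (log2 7.13, SE 0.77, edgeR adjusted p = 2.1e-08). *Pparg*, the fatty acid receptor of alveolar macrophages and fat cells, was lower in adventitial than in alveolar cells (log2 -2.38, SE 0.57, edgeR adjusted p = 0.0033).

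Of 18 retinoic acid responsive genes, 14 were tested. In epithelial over stromal 11 were called lower and 2 higher (46.0% of all genes called; median -7.55 on the log2 scale, -0.09 for all genes), and in immune over stromal 12 lower and none higher (50.8% of all genes called; median -5.24, -0.13 for all genes). In endothelial over stromal 3 were higher and 4 lower (32.1% of all genes called; median -0.12, as for all genes), and in endothelial over epithelial 12 were higher and 1 lower (39.7% of all genes called; median 6.32, 0.02 for all genes). Of the remaining comparisons, endothelial over immune had 12 higher and none lower (37.1% of all genes called; median 4.21), and epithelial over immune 2 higher and 4 lower (47.4% of all genes called; median -1.68). With genes at 0 UMIs in a class set to their bound of 3 UMIs over the class, the medians were -6.67 in epithelial over stromal, -4.63 in immune over stromal, 4.13 in endothelial over epithelial and 2.96 in endothelial over immune. *Hoxb4*, *Hoxb5* and *Hoxa4*, patterning genes of the Hox clusters, had 0 UMIs in epithelial cells of both libraries, and stood in stromal cells at 50.6 and 55.2, 35.4 and 43.3, and 14.3 and 13.3 CPM. *Hoxa5*, a homeobox gene of lung mesenchyme, was at 123.7 and 126.2 CPM in stromal and 58.6 and 127.7 in endothelial cells, 0 and 1.10 in immune cells, and 0.12 and 0 in epithelial cells. *Cyp26b1*, which degrades retinoic acid, was at 217.5 and 63.3 CPM in endothelial cells against 1.93 and 1.30 CPM in stromal cells (log2 5.89, SE 0.44, edgeR adjusted p = 2.9e-11), and was higher in adventitial than in alveolar cells (log2 2.56, SE 0.47, edgeR adjusted p = 0.00014). *Dhrs3*, which reduces retinaldehyde back to retinol, was 1 of the 2 called higher in epithelial cells and is given after its values were seen, at 111.2 and 148.7 CPM against 95.1 and 74.0 in stromal cells (log2 1.16, SE 0.26, edgeR adjusted p = 0.00048), although with library totals it was not called (log2 0.61, edgeR adjusted p = 0.061). *Lrat*, which makes the stored retinyl esters, was at 319.3 and 141.2 CPM in stromal cells and at most 58.6 CPM in any other class. With library totals the counts were 12 lower and none higher in epithelial over stromal, 12 lower and none higher in immune over stromal, 3 and 3 in endothelial over stromal, and 13 higher and none lower in endothelial over epithelial. These genes have many inputs beside retinoic acid.

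The genes whose levels ran closest to each receptor were sought among 8801 genes over 10 points (adventitial, alveolar, endothelial, epithelial and immune sums of both libraries, on log2(CPM + 1), centred within each library). With so few points high correlations are common, and they are given as a description. The closest to *Rara* were *Ankrd11*, *Rab4b* and *Rap1gds1* (r = 0.98 to 0.99), and to *Rarg* were *Ski*, *Arsa* and *Anapc5* (r = 0.991 to 0.995). *Ski* encodes a corepressor that can join the NCOR1 complex. The closest to *Rxra* were *Ago3*, *Cdc26* and *Atf7* (r = 0.98 to 0.99), to *Rxrb* were *Atxn2l*, *Atxn3* and *Zfp263* (r = 0.96 to 0.97), to *Ncor1* were *Plekhm1*, *Gak* and *March7* (r = 0.90 to 0.93), and to *Nrip1* were *Wdtc1*, *Phf21a* and *Eif4e* (r = 0.90 to 0.94). Within the set *Rarg* and *Rxra* ran together most closely (r = 0.95), *Rara* and *Rarg* had r = 0.35, and *Ncor1* had r = -0.78 with *Rarg* and r = -0.68 with *Rxra*.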

How the data were processed

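Single-cell libraries were made by the authors with the 10x Genomics 3′ chemistry (v3.1) from UV-positive, live lung cells after enzymatic digestion, on 2 occasions. The deposited matrices hold raw UMI counts per gene and barcode, from Cell Ranger 5.0.1 on mm10 per the labels, with no normalization. UMIs were summed per class and library (gates given with the results). Sums were fitted with edgeR 4.0.16 (quasi-likelihood, TMM, filterByExpr, library as block) in R 4.3.3, with Benjamini-Hochberg adjustment over all genes tested, and DESeq2 1.42.0 as an alternative. The classes of a library come from 1 sort, which pairs them. Deviations of the classes of a library correlated at 0.076 to 0.25 over 11832 genes. Cells were not treated as replicates. With the library as a block, p-values measure how far differences between groups varied from 1 sort to the other, not the spread between the sorts. There are only 2 libraries, and the groups of a fit share 1 estimate of that variation. Poisson (95%) and Clopper-Pearson intervals cover counting error only, and a count of 0 allows 3 UMIs.

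The 8 genes and the lists were chosen with earlier results of these data known. Named genes are the 8, called members of the lists by size of difference (at most 4 per list and comparison; not all are named, and *Dhrs3* was added after its values were seen), and the 3 nearest by correlation. Alternatives were DESeq2, no filter, no block, stricter gates, 5 UMIs per gate, at most 5% mitochondrial UMIs, thinning to 2000 UMIs, single libraries and, added after the data were seen, library totals in place of TMM. Comparisons of aerocytes with general capillary cells, AT1 with AT2 cells and macrophages with lymphocytes were not tested, since a subgroup had under 20 cells in a library. The code was tested on simulated data. Positions are from GENCODE and promoters from RefSeq (GRCm38.p6).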

Additional observations from a re-analysis of the deposited data

How the results depend on the processing

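Leaving the replicate block (the library) out of the fit moved the count of receptors and corepressors called from 2 to 1 in endothelial over stromal, from 4 to 2 in epithelial over stromal, from 2 to 1 in endothelial over immune and from 2 to 1 in epithelial over immune, and the count of all genes called between adventitial and alveolar cells from 1008 to 181. Strict gates gave 1 call in endothelial over stromal, 0 in endothelial over immune (2 at an unadjusted p under 0.05) and 1 in epithelial over immune. The share of all genes called is not given here for each setting. The counts for the set in this paragraph are therefore not read as a result about the receptors and corepressors. In the fits on thinned cells the gates were applied to the thinned counts, so the cells of a class changed too. Thinning cells to 2000 UMIs, which leaves fewer UMIs and genes, gave 0, 2, 1, 0 and 1 calls in endothelial over stromal, epithelial over stromal, immune over stromal, endothelial over immune and epithelial over immune (0 and 1 at an unadjusted p under 0.05 where the edgeR count is 0), and 3252, 2537, 2923, 3255 and 543 genes called in epithelial over stromal, endothelial over epithelial, endothelial over immune, epithelial over immune and adventitial over alveolar. Without thinning 5443, 4703, 4392, 5609 and 1008 genes were called in these last comparisons, so calls fell among all genes too. DESeq2 called 0 of the set in endothelial over stromal (1 at an unadjusted p under 0.05), 1 in epithelial over immune, and 667 genes between adventitial and alveolar cells; without the filter on low counts 1895 genes were called there, *Rxrg* among them (1 of the set).

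Directions that turned, on the log2 scale, were mostly of uncalled differences. With library totals *Rxrb* became 0.15 in endothelial over stromal, -0.28 in epithelial over stromal and 0.43 in endothelial over epithelial, *Ncor1* 0.13 in endothelial over stromal, *Nrip1* -0.049 in immune over stromal and 0.28 in endothelial over epithelial, *Rarb* -0.23 in epithelial over stromal and 0.24 in endothelial over immune (0.014 with DESeq2), and *Rxra* -0.11 in epithelial over immune (-0.080 with at most 5% mitochondrial UMIs). *Rarg* in endothelial over stromal became -0.22 without the filter, -0.074 with strict gates and -0.0019 with at most 5% mitochondrial UMIs, *Rxrb* there became 0.011 both with strict gates and with 5 UMIs per gate, and *Rara* in adventitial over alveolar became -0.24 after thinning. Single libraries ran from -0.58 to 1.03 for *Rara* in endothelial over stromal, from -1.85 to 4.89 for *Rarb* in immune over stromal and from -5.41 to 1.74 for *Rarb* in epithelial over immune; of 17 calls, 14 kept their direction in each library alone. Of the subtype shares 20 values moved by more than the spread between libraries, most of them after thinning. The causes were not tested. Depth limits the endothelial values of library 1 and every value of *Rarb* and *Rxrg*.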
